A study of Homo sapiens with 6 samples.

Results

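The genes described here build and regulate the actin cytoskeleton or belong to the SRF branch of transcription that reads it, and 10 were chosen by name out of the 22152 genes of the deposited table. They are the actins ACTB and ACTG1, the actin-binding genes PFN1, CFL1, CORO1A, ACTN1, ACTN4 and VCL, and the transcription factor genes SRF and ELK4. ACTB and CORO1A were picked because they were higher, and ELK4 because it was lower, in the comparison of the groups described here. The values of these 3 genes are therefore a description, and no p-value is given for them. The other 7 were listed beside them without a stated direction, also with earlier results of these data known.

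HaCaT, an established line of spontaneously immortalised human keratinocytes, was transfected with 1 nM of a synthetic miRNA mimic and harvested 48 h later for sequencing of polyadenylated RNA. The NC mimic group received a negative control miRNA and the miR-21-3p mimic group received miR-21-3p, the passenger strand of the miR-21 precursor. Each group held 3 biological replicates of this single line, and both groups went through the transfection. The comparison asks which transcripts differ when the passenger strand is supplied in excess.

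Actin monomers assemble into filaments that shape the cortex, drive migration and anchor the junctions of a keratinocyte. Free monomers also hold back the MRTF coactivators of SRF, so that assembly of filaments releases MRTF to the nucleus, where SRF switches on actin and actin-binding genes. The ternary complex factors ELK1, ELK3 and ELK4 are the other class of SRF partners and carry growth factor signals from the MAP kinases to immediate early genes.

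Values are the deposited normalised read counts, that is, reads per gene divided by a size factor for each library and written with 3 significant digits. The reads recovered for the listed genes ran from 24402972 to 27982497 per library. A gene was tested where its mean over the 6 libraries was at least 10, which 14782 genes reached, all 10 described here among them. Fold changes are differences of log2(value + 1) with standard errors from limma, and a gene is said to have risen or fallen where limma's Benjamini-Hochberg adjusted p over all tested genes was below 0.05.

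One library of the control group stood apart. On the first principal component, which held 47.0% of the variance, NC mimic replicates 1, 2 and 3 scored 21.2, 1.74 and 13.4, and miR-21-3p mimic replicates 1, 2 and 3 scored -11.6, -6.81 and -17.9. NC mimic replicate 2 thus lay nearer to the miR-21-3p mimic libraries than the other controls did. Values without this library are given beside some of the results, and the plot of fold changes shows them for all 10 genes.

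The keratinocyte label was checked first. Of 13 keratinocyte markers listed, 11 were in the table, and their summed normalised read counts were 354913, 341900 and 356296 in the NC mimic libraries and 361701, 371255 and 344952 in the miR-21-3p mimic libraries. KRT5, a basal keratin, was the most abundant of them. The groups overlapped in this sum, and of the 11 markers only KRT6A, a keratin of activated keratinocytes, rose by limma, by 0.34 ± 0.04 (adjusted p = 0.00203). Over all genes tested 6.15% rose, and of the 11 markers edgeR called 1 and DESeq2 called 2.

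The order of the levels was compared per length, as normalised reads per kb of exon, with exon lengths from the GENCODE v29 basic annotation. In the NC mimic libraries ACTB came first at 15738 ± 1623 per kb (mean ± SD, n = 3) and ACTG1 next at 12556 ± 352. CFL1 followed at 4345 ± 349 and PFN1 at 3811 ± 343, and the libraries of these neighbours overlapped. ACTN4 at 1631 ± 54.1 and VCL at 1569 ± 29.9 also overlapped, and ACTN1 lay below both at 906 ± 19.1. The transcription factor genes were lower, ELK4 at 473 ± 30.9 and SRF at 313 ± 18.2. CORO1A was last by a wide margin at 37.7 ± 9.24. The order by mean was the same in the miR-21-3p mimic libraries, from ACTB at 20258 ± 1198 to CORO1A at 68.4 ± 2.62 per kb. The annotation used for the deposited counts is not given in the sources used here, so another choice of transcripts could move close neighbours.

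**Figure D1:**
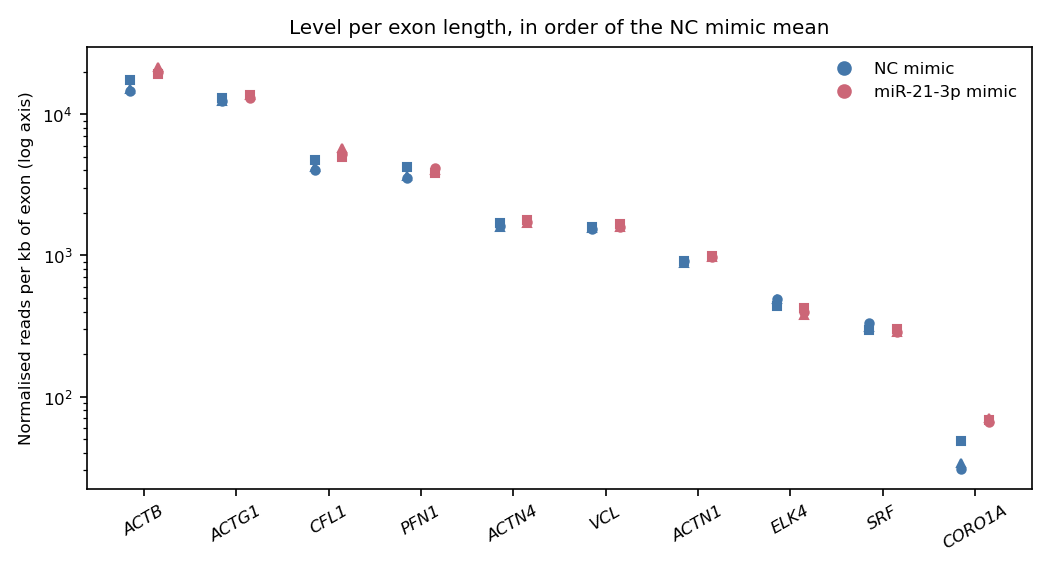
Normalised reads per kb of exon (log axis) for the 10 genes in each of the 3 NC mimic (blue) and 3 miR-21-3p mimic (red) libraries, with 1 marker shape per replicate number. The actins ACTB and ACTG1 sit highest and CORO1A sits lowest in both groups.

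The promoter windows of SRF, ACTG1, ACTN1, CFL1 and ELK4 show how the letters that SRF and its ELK partners are known to bind are placed in these genes. RefSeq windows of 250 bases before to 50 bases after a start site (GRCh38.p14) were matched by symbol for 9 of the 10 genes. No window was matched for ACTB, so its promoter was not searched. The windows numbered 14 in all. They were searched on both strands for the CArG box, the element that SRF binds, and for the ETS core CCGGAA or its reverse complement TTCCGG, and no match of one overlapped a match of the other. Below, each stretch starts 20 bases before the first match and ends at most 20 bases after the last, without passing the start site. It is written 5' to 3' on the strand of the gene, with the matches in capitals.
SRF, chr6:43171179-43171268, plus strand: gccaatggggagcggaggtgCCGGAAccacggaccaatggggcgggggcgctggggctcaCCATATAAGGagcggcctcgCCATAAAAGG
ACTG1, chr17:81512864-81512913, minus strand: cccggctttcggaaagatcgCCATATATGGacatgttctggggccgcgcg
ACTN1, chr14:68977708-68977757, minus strand: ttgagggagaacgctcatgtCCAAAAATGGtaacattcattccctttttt
CFL1, chr11:65858220-65858265, minus strand: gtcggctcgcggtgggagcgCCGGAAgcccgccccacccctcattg
ELK4, chr1:205632012-205632216, minus strand: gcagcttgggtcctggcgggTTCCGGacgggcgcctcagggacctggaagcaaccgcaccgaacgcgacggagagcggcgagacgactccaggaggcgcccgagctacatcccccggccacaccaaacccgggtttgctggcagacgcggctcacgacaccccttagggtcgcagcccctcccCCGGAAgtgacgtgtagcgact

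Of the 2 SRF windows, 1 held an ETS core that began 70 bases before the start site and 2 CArG boxes that began 30 and 10 bases before it, and the other held neither. Only 11 of all 35116 promoter windows of this length held 2 or more CArG boxes. The single CArG box of ACTG1 began 94 bases before its start, and that of ACTN1 began 171 bases before 1 of its 4 start sites. In CFL1 the ETS core began 65 bases before the start, and ELK4 had a pair of cores at 185 and 22 bases. Among the 14 windows, 3 held a CArG box and 3 an ETS core, and over all promoter windows the shares were 1.29% and 17.2%. A match describes the letters of a window and does not show that a factor binds there.

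The cytoplasmic actins came first among the structural genes. ACTB (ENSG00000075624), which encodes beta-actin, was counted at 28900, 35000 and 30100 in NC mimic replicates 1, 2 and 3 and at 39600, 38400 and 43000 in miR-21-3p mimic replicates 1, 2 and 3. All 3 miR-21-3p mimic libraries lay above all 3 controls, and NC mimic replicate 2 was the highest control. The group means were 31333 ± 3232 and 40333 ± 2386 (SD, n = 3), a log2 fold change of 0.37 ± 0.07 (SE), and 0.45 without NC mimic replicate 2. ACTB had been picked on this difference. In bulk RNA a change in every cell and a change in the mix of cells cannot be told apart.

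ACTG1 (ENSG00000184009), which encodes gamma-actin, was counted at 29400, 30900 and 29500 in the NC mimic libraries and at 31300, 32500 and 32400 in the miR-21-3p mimic libraries. The groups did not overlap, but the gap between the nearest libraries was small. The log2 fold change was 0.10 ± 0.05 (95% confidence interval -0.0028 to 0.20) and did not pass the test (limma adjusted p = 0.186). In the coding sequence, 1027 of 1125 aligned bases of ACTB and ACTG1 are identical (91.3%), with a longest identical run of 59 bases in GENCODE v29. The read length is not given in the sources used here, so how far reads of the actins were shared or dropped in counting was not tested.

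Within each library the actins could be set against each other, a ratio that no scaling of libraries changes. The ratio of ACTB to ACTG1 counts was 0.983, 1.13 and 1.02 in the NC mimic libraries and 1.27, 1.18 and 1.33 in the miR-21-3p mimic libraries. The groups did not overlap, and again NC mimic replicate 2 was the control nearest to the miR-21-3p mimic libraries. The ratio of ACTB to GAPDH counts, a pair often used as references in qPCR, was 1.11, 1.10 and 1.13 in the controls and 1.27, 1.31 and 1.37 with miR-21-3p. Here NC mimic replicate 2 did not stand apart from the other controls. Since ACTB was picked on this contrast, both ratios are descriptions.

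**Figure D2:**
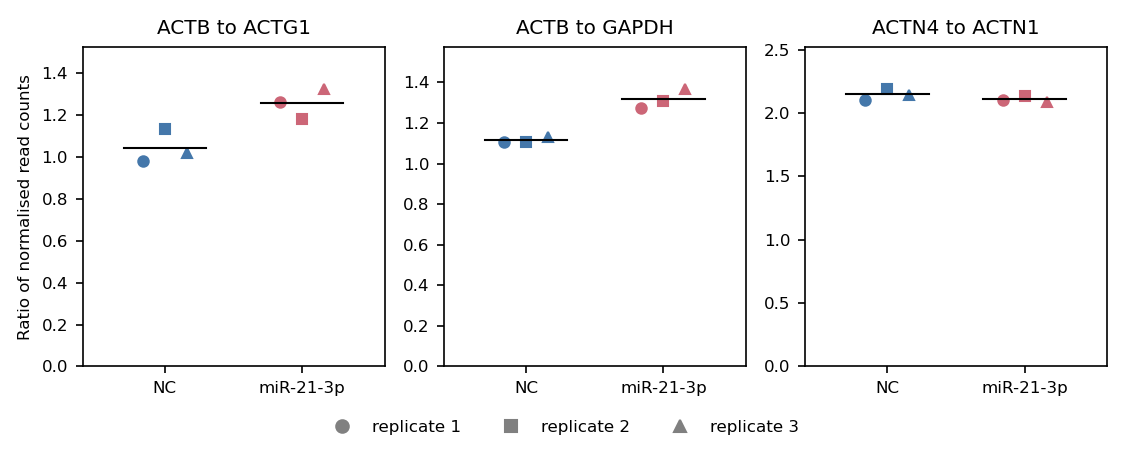
Ratio of normalised read counts of ACTB to ACTG1, ACTB to GAPDH and ACTN4 to ACTN1 in each library, with NC mimic in blue, miR-21-3p mimic in red, 1 marker shape per replicate number and a line at the group mean. The groups are apart for both ACTB ratios and overlap near 2.1 for ACTN4 to ACTN1.

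Monomer-binding and severing proteins set how fast filaments grow and shrink. CFL1 (ENSG00000172757), the non-muscle cofilin that severs old filaments, was counted at 9860, 11500 and 10300 in the NC mimic libraries and at 12700, 12100 and 13900 in the miR-21-3p mimic libraries. All 3 miR-21-3p mimic libraries were above all 3 controls, with miR-21-3p mimic replicate 2 and NC mimic replicate 2 closest to each other. CFL1 rose by 0.29 ± 0.06 on the log2 scale, or 1.22-fold (limma adjusted p = 0.0174, higher in 3 of 3 libraries).

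CFL1 was the only one of the 7 genes not picked on the contrast that passed the test, so 1 of 7 was called. Over all 14782 genes tested, 10.8% were called, 6.15% as higher (909 genes) and 4.67% as lower (691 genes). At an unadjusted p below 0.05 the count was 2 of 7, with ACTN1 the other gene, against 28.5% of all genes tested. The CFL1 call did not hold with every library left out, since its limma adjusted p was 0.0677 without NC mimic replicate 1, 0.0859 without NC mimic replicate 3, 0.0707 without miR-21-3p mimic replicate 1 and 0.0721 without miR-21-3p mimic replicate 3. Without NC mimic replicate 2 it was 0.000754, at a log2 fold change of 0.35.

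PFN1 (ENSG00000108518), the profilin that hands monomers to growing filament ends, was counted at 6900, 8150 and 7130 in the NC mimic libraries and at 8060, 7430 and 7800 in the miR-21-3p mimic libraries. The groups overlapped, with NC mimic replicate 2 above every other library. The log2 fold change was 0.07 ± 0.06 (95% confidence interval -0.06 to 0.20, limma adjusted p = 0.455). It was 0.15 without NC mimic replicate 2 (adjusted p = 0.0559), 0.026 without NC mimic replicate 1 (adjusted p = 0.845) and 0.046 without miR-21-3p mimic replicate 1 (adjusted p = 0.751).

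Processed copies of these genes lie elsewhere in the genome and can share their reads. Of 23 such copies listed, 6 were in the table, 5 were tested, and 1, PFN1P1, was called (10.8% over all genes). At an unadjusted p below 0.05 there were 3 (28.5% over all genes), PFN1P1, ACTBP11 (log2 fold change 0.30) and CFL1P1 (-0.36). CFL1P1 was counted at 103, 89.6 and 83 in the NC mimic libraries and at 80.6, 67.6 and 65.5 in the miR-21-3p mimic libraries. ACTBP11 and CFL1P1 did not pass the test and were named after their values were seen. PFN1P1 was counted at 683, 548 and 711 in the NC mimic libraries and at 791, 825 and 831 in the miR-21-3p mimic libraries, and it rose by 0.34 ± 0.09 (limma adjusted p = 0.0294). NC mimic replicate 2 was the lowest library for PFN1P1 and the highest for PFN1. With 1 library left out, the PFN1P1 call held only without NC mimic replicate 2, where its log2 fold change was 0.23 (adjusted p = 0.0276). Without any other single library it was 0.33 to 0.41, and the highest adjusted p was 0.0976, without miR-21-3p mimic replicate 3. How reads were divided between a gene and its copies is uncertain.

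CORO1A (ENSG00000102879), a coronin best known from leukocytes that binds filaments and the Arp2/3 complex, was counted at 59.4, 92.7 and 65.4 in the NC mimic libraries and at 126, 132 and 136 in the miR-21-3p mimic libraries. The miR-21-3p mimic libraries lay close together and above the controls, among which NC mimic replicate 2 was the highest. Means were 72.5 ± 17.7 and 131 ± 5.03 (SD, n = 3), a log2 fold change of 0.87 ± 0.16, or 1.83-fold, and 1.06 without NC mimic replicate 2. CORO1A had been picked on this difference, which was the largest of the 10.

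Behind the CORO1A values stood 57, 90 and 67 recovered reads in the controls and 124, 129 and 152 with miR-21-3p. The exact Poisson 95% interval ran from 43.2 to 73.9 reads for NC mimic replicate 1, from 72.4 to 111 for NC mimic replicate 2 and from 51.9 to 85.1 for NC mimic replicate 3. For miR-21-3p mimic replicates 1, 2 and 3 it ran from 103 to 148, from 108 to 153 and from 129 to 178. These intervals cover counting error only, and that of NC mimic replicate 2 overlapped those of miR-21-3p mimic replicates 1 and 2.

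Because CORO1A is typical of leukocytes, markers of other cell types were read beside it. Of 10 leukocyte markers listed, 2 were in the table, LAPTM5 and CD14, and the other 8 were not analysed here. Their sum was 216, 165 and 213 in the NC mimic libraries and 226, 234 and 187 in the miR-21-3p mimic libraries, with LAPTM5 the higher of the pair. The groups overlapped, and limma called 0 of the 2 (0 at an unadjusted p below 0.05, 0 by edgeR and 0 by DESeq2). LAPTM5 was at 126, 106 and 134 against 134, 142 and 118, a log2 fold change of 0.11, which ran from 0.011 without NC mimic replicate 2 to 0.18 without miR-21-3p mimic replicate 3. The value of CD14 was 0.16, and ran from -0.0094 to 0.30 with the same libraries left out.

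Markers of other lineages were read in the same way. The melanocyte and endothelial sum, from VWF and PMEL as the 2 of 7 markers in the table, was 875, 921 and 854 in the controls and 857, 899 and 887 with miR-21-3p, and limma called 0 of the 2 (0 at an unadjusted p below 0.05, 0 by edgeR and 0 by DESeq2). COL1A1, the 1 of 9 fibroblast and smooth muscle markers in the table, was at 560, 390 and 478 in the controls and 372, 378 and 364 with miR-21-3p. For COL1A1 the miR-21-3p mimic libraries lay below the controls, and its log2 fold change of -0.34 ± 0.11 did not pass limma's test (adjusted p = 0.0635) or edgeR's but passed that of DESeq2 (adjusted p = 0.0267). Without NC mimic replicate 2, COL1A1 was -0.48 and passed limma's test too (adjusted p = 0.00179), and without NC mimic replicate 1 it was -0.22 (adjusted p = 0.211). The part of other cell types in the CORO1A difference was not tested beyond these sums.

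The other coronins were read beside CORO1A, which was picked on the contrast and is given no call. Of 6 listed, 4 were tested, and limma called 0 of 4 (1 at an unadjusted p below 0.05, 0 by edgeR and 0 by DESeq2). CORO2A was at 5860, 5740 and 5840 in the controls and 5620, 5860 and 5490 with miR-21-3p, a log2 fold change of -0.04 ± 0.04 (limma adjusted p = 0.579). CORO1B, the widely expressed relative of CORO1A, was at 4670, 4280 and 4420 against 4190, 4480 and 4190 (-0.06 ± 0.05, adjusted p = 0.481). The groups overlapped for both genes. With 1 library left out, CORO2A ran from -0.019 (without miR-21-3p mimic replicate 3) to -0.066 (without miR-21-3p mimic replicate 2), and CORO1B from -0.022 (without NC mimic replicate 1) to -0.088 (without miR-21-3p mimic replicate 2). CORO1C was at 3950, 4210 and 4000 against 4410, 4470 and 4480 (0.14 ± 0.04, adjusted p = 0.0621). Its groups did not overlap, and it was the gene at an unadjusted p below 0.05, named after its values were seen.

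Alpha-actinins and vinculin tie filaments into bundles and to the membrane. ACTN1 (ENSG00000072110), which crosslinks stress fibres, was counted at 3800, 3830 and 3680 in the NC mimic libraries and at 4050, 4140 and 4060 in the miR-21-3p mimic libraries. The groups did not overlap and each was tight. The log2 fold change was 0.12 ± 0.04 (95% confidence interval 0.02 to 0.21) and did not pass the test over all genes (limma adjusted p = 0.0945).

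ACTN4 (ENSG00000130402), the other non-muscle alpha-actinin, was counted at 8000, 8400 and 7890 in the NC mimic libraries and at 8530, 8830 and 8490 in the miR-21-3p mimic libraries. Here too the groups did not overlap, with NC mimic replicate 2 the highest control. The log2 fold change was 0.09 ± 0.04 (95% confidence interval -0.0046 to 0.18, limma adjusted p = 0.196). The ratio of ACTN4 to ACTN1 counts was 2.11, 2.19 and 2.14 in the controls and 2.11, 2.13 and 2.09 with miR-21-3p, so the groups overlapped. Their aligned coding sequences are 82.1% identical, with a longest identical run of 73 bases.

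VCL (ENSG00000035403), which encodes vinculin, the link between talin or catenins and actin, was counted at 10300, 10700 and 10500 in the NC mimic libraries and at 10600, 11100 and 10700 in the miR-21-3p mimic libraries. The groups overlapped. The log2 fold change was 0.04 ± 0.04 (95% confidence interval -0.05 to 0.13, limma adjusted p = 0.568). It was 0.027 without NC mimic replicate 1 (adjusted p = 0.771) and 0.021 without miR-21-3p mimic replicate 2 (adjusted p = 0.806).

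SRF (ENSG00000112658), the transcription factor whose promoter holds the CArG boxes shown above, was counted at 1400, 1250 and 1300 in the NC mimic libraries and at 1210, 1270 and 1210 in the miR-21-3p mimic libraries. NC mimic replicate 2 lay below miR-21-3p mimic replicate 2, so the groups overlapped. The log2 fold change was -0.10 ± 0.06 (95% confidence interval -0.22 to 0.03, limma adjusted p = 0.284). It was -0.13 without NC mimic replicate 2 (adjusted p = 0.137) and -0.052 without NC mimic replicate 1 (adjusted p = 0.621).

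ELK4 (ENSG00000158711), also called SAP-1, a ternary complex factor that sits with SRF on immediate early promoters, was counted at 5360, 4780 and 5370 in the NC mimic libraries and at 4380, 4640 and 4160 in the miR-21-3p mimic libraries. Every miR-21-3p mimic library was below every control, and the replicates numbered 2 of each group were the nearest to each other. Means were 5170 ± 338 and 4393 ± 240 (SD, n = 3), a log2 fold change of -0.23 ± 0.06, or 0.850-fold, and -0.29 without NC mimic replicate 2. ELK4 had been picked on this difference.

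Seen together, all 3 miR-21-3p mimic libraries lay above all 3 controls for 4 of the 7 genes not picked on the contrast (ACTG1, CFL1, ACTN1 and ACTN4), and the other 3 overlapped. Over all tested genes the share with every miR-21-3p mimic library above was 16.5% (2437 genes), and the share with every one below was 14.8% (2183 genes). The 7 were listed with earlier results known, and nothing is read from this count.

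**Figure D3:**
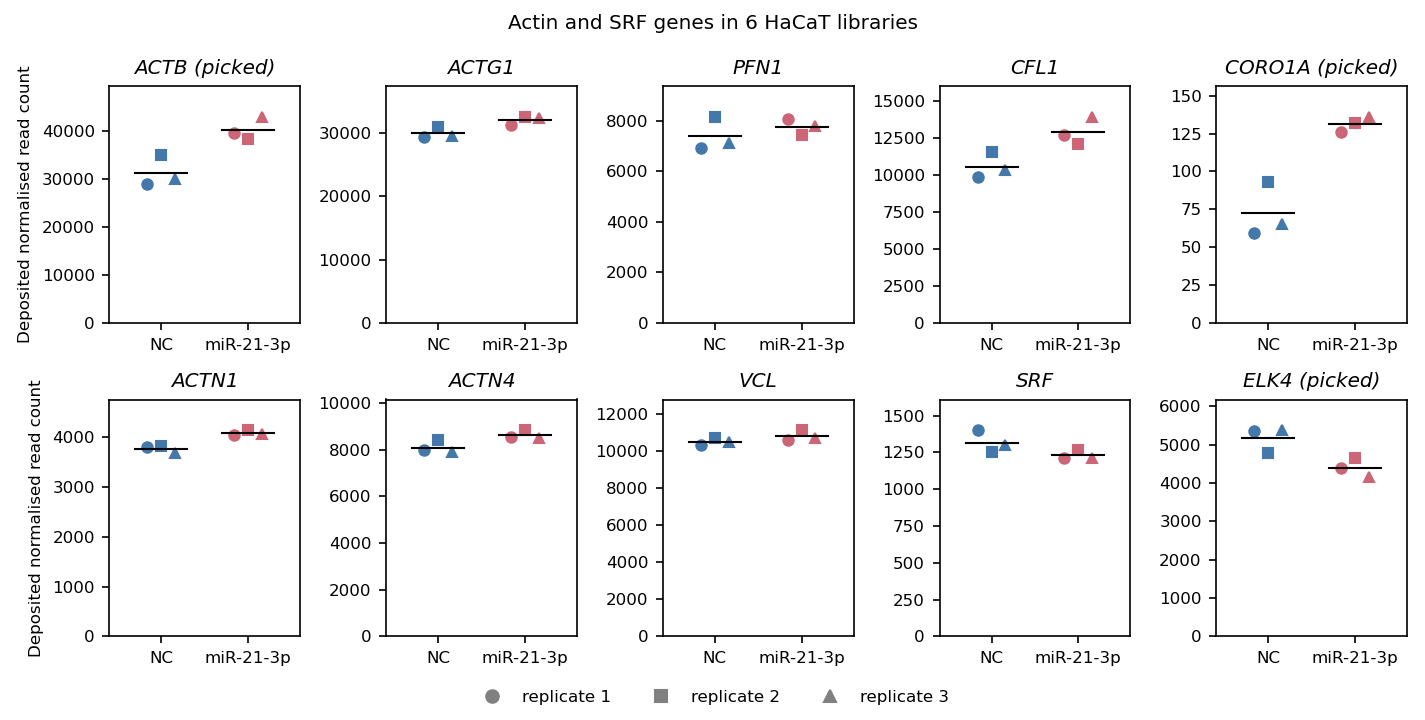
Deposited normalised read count of each of the 10 genes in the 3 NC mimic (blue) and 3 miR-21-3p mimic (red) libraries, with 1 marker shape per replicate number and a line at the group mean. CORO1A goes from 59.4 to 92.7 in the controls and from 126 to 136 with miR-21-3p, while PFN1, VCL and SRF overlap.

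**Figure D4:**
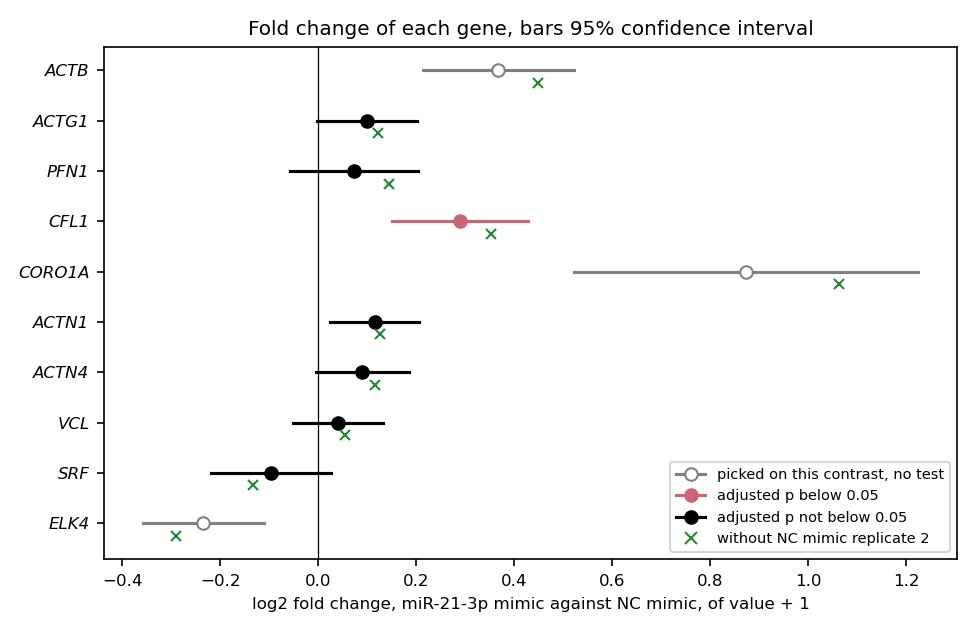
log2 fold change of value + 1, miR-21-3p mimic against NC mimic, with 95% confidence intervals, for the 10 genes. Open circles mark the 3 genes picked on this contrast. Their limma intervals of the mean difference are given as a description and are not a test. The red circle marks CFL1, which passed the test, and crosses give the value without NC mimic replicate 2.

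The wider pathway was read from 13 lists of actin and SRF genes, 199 genes in all without the 10 above. In the table were 161 of them, and 160 were tested. Of these, 15 rose (9.38%, against 6.15% of all genes tested) and 5 fell (3.13%, against 4.67%), with a median log2 fold change of 0.03 against 0.0045 over all genes tested. These shares are the background for the counts of single lists given further on. With 1 library left out, the counts of genes that rose and fell were 28 and 11 without NC mimic replicate 2, 6 and 3 without NC mimic replicate 1, and 2 and 1 without NC mimic replicate 3. They were 3 and 1 without miR-21-3p mimic replicate 1, 11 and 5 without miR-21-3p mimic replicate 2, and 4 and 1 without miR-21-3p mimic replicate 3.

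The counts over all genes moved in the same way, from 909 higher and 691 lower to 1629 and 1334 without NC mimic replicate 2, to 316 and 229 without NC mimic replicate 1, and to 98 and 81 without NC mimic replicate 3. Over all genes they were 147 and 132 without miR-21-3p mimic replicate 1, 899 and 641 without miR-21-3p mimic replicate 2, and 203 and 165 without miR-21-3p mimic replicate 3. Of the 24 called genes that the naming rule takes from the lists, including PFN1P1, KRT6A and qPCR reference genes, 4 kept an adjusted p below 0.05 with each library left out in turn, TNS3, DUSP6 and KRT6A among them, and all 24 kept it without NC mimic replicate 2. The other calls were lost without at least 1 library, with 4 of 24 kept without NC mimic replicate 3, 5 without miR-21-3p mimic replicate 1, 6 without miR-21-3p mimic replicate 3, 10 without NC mimic replicate 1 and 17 without miR-21-3p mimic replicate 2.

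Of 16 tested genes for monomer binding and turnover 1 was called (10.8% over all genes) and 6 had an unadjusted p below 0.05 (28.5% over all genes). The called gene, SSH2, a slingshot phosphatase that activates cofilin, fell by 0.15 on the log2 scale (limma adjusted p = 0.0491), from 2710, 2550 and 2660 to 2410, 2380 and 2330. This call held in 5 of 15 alternatives, and with all libraries kept it was lost under DESeq2 (adjusted p = 0.0535) and with no filter on low values (adjusted p = 0.0538), among others. Beside SSH2, an unadjusted p below 0.05 was reached by CFL2, DSTN, WDR1 and TMSB10 (0.19, 0.12, 0.16 and 0.17) and by SSH3 (-0.16). None of these passed the test over all genes, and they were named after their values were seen. Among 2 tested actin relatives beside ACTB and ACTG1, limma called 0 (1 at an unadjusted p below 0.05, 0 by edgeR and 0 by DESeq2). ACTL6A, an actin-like subunit of chromatin remodellers, was at 965, 1150 and 1020 in the controls and 1220, 1090 and 1350 with miR-21-3p, and ACTA2, smooth muscle actin, was at 155, 127 and 133 against 116, 173 and 99.6. Both overlapped between groups, but ACTL6A was called without NC mimic replicate 2 (0.29, limma adjusted p = 0.0159) and without miR-21-3p mimic replicate 2 (0.30, adjusted p = 0.0397). Without miR-21-3p mimic replicate 3 its value was 0.15 (adjusted p = 0.331).

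The Arp2/3 complex builds branched networks, and of 20 tested subunits and activators 1 rose and 1 fell. ACTR3B, a variant of the Arp3 subunit, rose by 0.53 ± 0.14 (adjusted p = 0.0339) from 70.9, 62.8 and 56.6 to 87.7, 94.2 and 93.3. WAS, an Arp2/3 activator known from blood cells, went from 141, 101 and 111 to 71.4, 89.1 and 63.7, and its log2 fold change was -0.65 ± 0.16 (adjusted p = 0.0288). Neither gene overlapped between groups, and the list median was 0.05. The ACTR3B call was lost under DESeq2 (adjusted p = 0.0857).

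Formins build unbranched filaments, and of 11 tested formin and Ena/VASP genes 2 rose. DIAPH3 went from 741, 861 and 766 to 961, 935 and 1030 (0.31 ± 0.07, adjusted p = 0.0183). FHOD1 went from 726, 719 and 692 to 874, 823 and 896 (0.28 ± 0.06, adjusted p = 0.0155). In both genes the libraries of the groups did not overlap.

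Crosslinkers had the highest median of the 13 lists, 0.12, and 4 of 14 tested genes rose. ANLN, the scaffold of the cytokinetic ring, went from 9030, 11300 and 10000 to 12900, 12700 and 13600 (0.38 ± 0.07, adjusted p = 0.00892). FLNA, filamin A, went from 16500, 18100 and 15900 to 19600, 19000 and 20400 (0.23 ± 0.05, adjusted p = 0.0235). MSN, the membrane linker moesin, was also among the 4. NC mimic replicate 2 was the control closest to the miR-21-3p mimic libraries for ANLN and FLNA, as it was for ACTB and CFL1.

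Of 16 tested myosin II and tropomyosin genes 3 rose. TPM3, a tropomyosin that coats filaments, went from 6140, 7010 and 6430 to 7730, 7490 and 7970 (0.25 ± 0.05, adjusted p = 0.0155). TPM4 went from 6620, 7340 and 6940 to 7690, 7820 and 8090 (0.18 ± 0.05, adjusted p = 0.0369). MYH10, a non-muscle myosin heavy chain, went from 522, 549 and 478 to 606, 592 and 629 (0.24 ± 0.07, adjusted p = 0.0490). The controls lay below every miR-21-3p mimic library for all 3 genes. The MYH10 call held in 4 of 15 alternatives and was lost under DESeq2 (adjusted p = 0.0751) and with no filter on low values (adjusted p = 0.0564), among others.

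Capping and focal adhesion genes held the other falls. Of 12 tested capping genes EPS8, which caps barbed ends, fell by 0.24 on the log2 scale (adjusted p = 0.0122), from 1950, 1950 and 2030 to 1670, 1730 and 1610. Of 19 tested focal adhesion plaque genes 2 fell, and the list median of -0.06 was the lowest of the 13. TNS3, a tensin that joins integrins to actin, went from 9680, 8600 and 9150 to 6940, 7230 and 6510 (-0.41 ± 0.05, adjusted p = 0.00258). TLN1, the integrin activator talin, which also binds vinculin, went from 3970, 3750 and 4030 to 3300, 3510 and 3180 (-0.23 ± 0.05, adjusted p = 0.0154). For TNS3 and TLN1 every miR-21-3p mimic library was below every control.

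ELK4 was picked on the contrast and is given no call. Of the other SRF cofactors, 0 of 6 tested genes passed limma's threshold (0 at an unadjusted p below 0.05, 0 by edgeR and 0 by DESeq2). MRTFB, a coactivator held back by actin monomers, was at 3400, 3380 and 3320 in the controls and 3320, 3170 and 3150 with miR-21-3p (-0.07 ± 0.04, adjusted p = 0.329). ELK3, another ternary complex factor, was at 1720, 1880 and 1800 against 1800, 1870 and 1830 (0.03 ± 0.05, adjusted p = 0.754), and its value ran from -0.0051 without NC mimic replicate 1 to 0.059 without NC mimic replicate 2. Both overlapped between groups.

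Target genes of both SRF branches held some rises and some values below 0. Of 17 tested genes known as MRTF-SRF targets, 3 rose, ANKRD1 and, shared with the lists above, FLNA and TPM4. ANKRD1, a stretch-responsive nuclear cofactor, went from 81.3, 94.8 and 103 to 150, 129 and 118 (0.50 ± 0.14, adjusted p = 0.0374). This call was lost under DESeq2 (adjusted p = 0.0555). At an unadjusted p below 0.05 there were 6 (28.5% over all genes), the 3 that rose and TAGLN, TPM2 and TGFB1I1. Log2 fold changes of the latter were -0.42, -0.24 and -0.15, with every miR-21-3p mimic library below every control. TAGLN, TPM2 and TGFB1I1 did not pass the test over all genes and were named after their values were seen. The median of this list was 0.01, close to that of all genes. Of 15 tested genes known as targets of the ternary complex factors, 3 rose and 0 fell, with a list median of 0.08 and 10 values above 0. At an unadjusted p below 0.05 there were 6 (28.5% over all genes), with EGR1, DUSP4 and DUSP5 (0.24, 0.16 and 0.23) beside the 3 that rose. The immediate early genes FOS, FOSB, JUNB and IER2 were at -0.07, -0.42, -0.02 and 0.0055 and did not pass the test. These 4 genes and EGR1, DUSP4 and DUSP5 were named after their values were seen.

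DUSP6, a phosphatase that dampens ERK, went from 1040, 1210 and 1040 to 1510, 1420 and 1460 (0.42 ± 0.06, adjusted p = 0.00487). IER3, an early response gene, went from 664, 723 and 655 to 834, 838 and 807 (0.28 ± 0.06, adjusted p = 0.0171). SPRED1, an inhibitor of RAS signalling, went from 641, 669 and 675 to 846, 802 and 748 (0.27 ± 0.06, adjusted p = 0.0223). All 3 had every miR-21-3p mimic library above the controls.

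**Figure D5:**
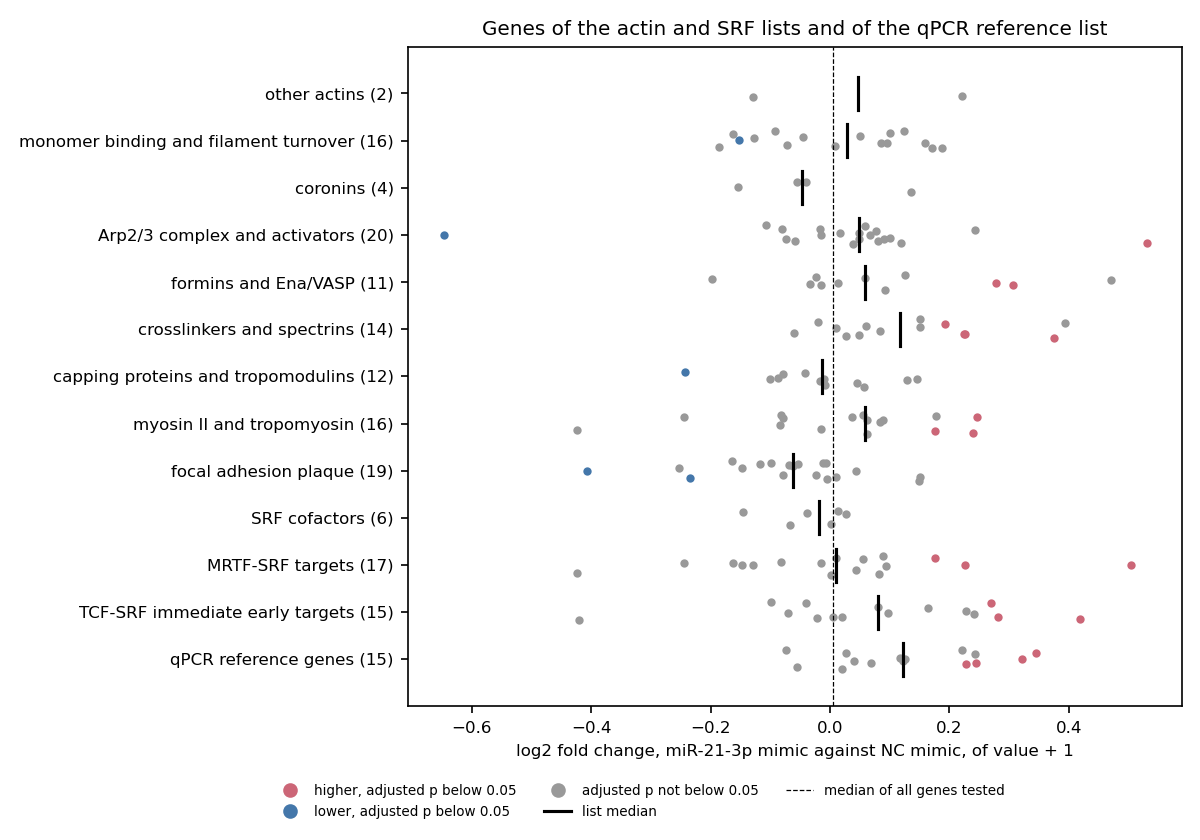
log2 fold change of value + 1, miR-21-3p mimic against NC mimic, of each tested gene (points, with the number tested in brackets) in 12 of the actin and SRF lists and in the qPCR reference list. Red and blue points passed the test as higher and lower, bars mark list medians and the dashed line marks the median of all genes tested, and the 2 called focal adhesion genes lie to the left.

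ACTB is also a common reference for qPCR, so the 15 other reference genes listed were read beside it. All were tested, 4 rose (26.7%, against 6.15% of all genes tested), and the list median was 0.12. HPRT1 went from 846, 1110 and 877 to 1170, 1090 and 1260 (0.32 ± 0.09, adjusted p = 0.0439), and its groups overlapped through NC mimic replicate 2. With all libraries kept, the HPRT1 call was lost without the filter (adjusted p = 0.0507), with values rescaled to equal totals (adjusted p = 0.0530) and under edgeR with library totals (adjusted p = 0.0558). PPIA went from 2330, 2630 and 2370 to 2850, 2720 and 3110 (0.24 ± 0.06, adjusted p = 0.0272), and PGK1 was also among the 4. With 1 library left out, the HPRT1 and PPIA calls held only without NC mimic replicate 2 and without miR-21-3p mimic replicate 2.

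GAPDH was at 26100, 31700 and 26600 in the controls and 31100, 29300 and 31400 with miR-21-3p, with a log2 fold change of 0.13 that did not pass the test (adjusted p = 0.252). NC mimic replicate 2 was its highest library, so the value would be higher without it, by an amount not given here. TBP was at 492, 517 and 515 against 472, 519 and 476, and its groups overlapped. The groups of SDHA also overlapped, at 2380, 2550 and 2390 against 2470, 2620 and 2440. GAPDH, TBP, SDHA, PGK1 and MSN were named after their values were seen.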

How the data were processed

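Per the submitters' processing notes, the authors made the table with bcl2fastq 2.18.12, cutadapt 1.15, TopHat2 2.1.1, featureCounts from Subread 1.5.2 and DESeq2. The genome build and annotation are not given in the sources used here. The deposited values are a normalised signal, gene counts divided by a size factor for each library, with 3 significant digits. Whole multiples of 1 read within 0.1 made up 100% of the values above 0 and below 100 and 55.8% to 56.7% of all values, so reads were recovered, exact only for low values. They differed between replicates by more than sampling noise (chi-square per gene 1.22 to 1.51).

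The design assumed raw counts and edgeR. Because the table holds normalised values, the main test was limma 3.58.1 with a mean-variance trend on log2(value + 1) in R 4.3.3, two-sided, over genes with a mean of at least 10. This understates changes of low genes. Alternatives were edgeR 4.0.16 and DESeq2 1.42.0 on recovered reads, no filter, the replicate number as a block, each library left out, and, chosen after seeing the data, edgeR with TMM, a pseudocount of 10 and rescaled values. With TMM, edgeR called 878 genes higher and 761 lower.

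The genes named are the 10 chosen, and in each list up to 3 per direction past the threshold with the largest change or, where none passed, the 2 with the highest mean. Of these, 1 list and some genes are not reported here. Members and lists were chosen with earlier results of these data known. Promoters came from RefSeq and were searched with Python 3.11.15, coding sequences were aligned with Biopython 1.88, and figures were drawn with matplotlib 3.10.9. The limma and edgeR steps were tested on simulated data. How separately the cultures of the biological replicates were grown is not given in the sources used here, so p-values measure the spread between these libraries, which may be partly technical.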

Additional observations from a re-analysis of the deposited data

How the results depend on the processing

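Of 150 values for the 10 genes (15 alternatives each), none changed direction. The 45 values of ACTB, CORO1A and ELK4 are a description, since these genes were picked on this contrast. Dropping the filter or adding the replicate block left each log2 fold change as it was, so direction could not change there. Of the 105 for the 7 tested genes, 101 stayed on the same side of the threshold. The 4 others were CFL1 with NC mimic replicate 1, NC mimic replicate 3, miR-21-3p mimic replicate 1 or miR-21-3p mimic replicate 3 left out, where it no longer passed. With 1 library left out, the CFL1 log2 fold change ran from 0.24 to 0.35. The count of tested genes among the 7 that passed ran from 0 to 1, genes called higher from 98 to 1629, genes called lower from 81 to 1334, pathway genes called higher from 2 to 28 and pathway genes called lower from 1 to 11. Fewer libraries leave fewer degrees of freedom, yet leaving out NC mimic replicate 2 raised the counts. The cause was not tested.

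For the 35 genes that the naming rule takes from the lists, 423 of 525 values kept their side of the threshold, 98 lost it, 4 gained it and no called value changed direction. Other tests and scalings called 819 to 916 genes higher and 624 to 774 lower, and moved the median of all genes by less than 0.1.

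Same-numbered libraries did not deviate together (correlations -0.0059, -0.20 and -0.17, with 0 of 6 libraries closest to their own number), so the numbers were not used as pairs. With the replicate block, 685 genes were called higher and 517 lower, with 10 pathway genes higher and 4 lower, and CFL1 still passed. SSH2, MYH10, TPM4, ACTR3B and ANKRD1 did not pass with it (adjusted p = 0.122, 0.0927, 0.0725, 0.0563 and 0.0556). Of the 10 genes, low counts limit CORO1A most.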
